A study of Mus musculus with 5 samples.

Results

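Matrix metalloproteinases (MMPs) and the tissue inhibitors of metalloproteinases (TIMPs) were followed during the 5C-induced conversion of mouse embryonic fibroblasts (MEFs) towards neuron-like cells. The set holds 6 MMP genes (Mmp2, Mmp3, Mmp9, Mmp11, Mmp13 and Mmp14) and the 4 TIMP genes (Timp1 to Timp4), 10 of the 27729 genes measured. The members were listed by name and matched to the gene identifiers of the expression tables. Total RNA was sequenced in 5 libraries, 1 for MEFs in serum-containing medium (day 0) and 1 each for days 2, 5, 10 and 14 of the conversion medium. All 5 libraries came from MEFs of mid-gestation ICR mouse embryos, with the head and internal organs removed. Day 0 was the only library from medium with fetal bovine serum, and the 4 later libraries came from a serum-free DMEM/F12 medium with N2, vitamin C, the growth factor bFGF, the cytokine leukemia inhibitory factor (LIF) and 2-mercaptoethanol. Time in culture and the change of medium therefore cannot be told apart. The labels call this medium 6C where the study writes 5C, and the treatment text names day 15 where the title of the last library reads day 14. With 1 library per day no test between days was possible. The intervals given are 95% intervals of counting error only, and they cover no difference between cultures or library preparations.

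MMPs are zinc-dependent proteases that cut proteins of the extracellular matrix and the cell surface. Most are secreted as inactive proenzymes, while a few, such as Mmp14, sit in the plasma membrane. The 4 TIMPs are small secreted proteins that bind the active site of MMPs and block it. Fibroblasts are a main source of both families, and their balance is known for its part in matrix turnover and cell migration. Only RNA was measured here, and neither protease activity nor protein was.

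The results turned on a few genes, of which Mmp3 and Mmp13 lie in a cluster of MMP genes on chromosome 9. Promoters of several MMP genes are known for AP-1 sites, which Fos and Jun proteins bind. The sequences below are the 100 bases before the annotated start of Mmp3, Mmp13, 2 further genes of the cluster (Mmp1a and Mmp10) and Timp1, from RefSeq on GRCm38.p6, 5′ to 3′. They show, in capitals, the match to the AP-1 motif TGANTCA in 4 genes of the cluster that were higher on day 2 than on day 0, and the window of Timp1, which holds none. Mmp3 lies on the plus strand at chr9:7445722-7445821, Mmp13 at chr9:7272414-7272513, Mmp1a at chr9:7464041-7464140, Mmp10 at chr9:7502242-7502341 and Timp1 at chrX:20870066-20870165, all on the plus strand.
Mmp3: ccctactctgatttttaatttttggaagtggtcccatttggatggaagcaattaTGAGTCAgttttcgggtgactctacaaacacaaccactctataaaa
Mmp13: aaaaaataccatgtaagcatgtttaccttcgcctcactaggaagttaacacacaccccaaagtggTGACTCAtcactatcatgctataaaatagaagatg
Mmp1a: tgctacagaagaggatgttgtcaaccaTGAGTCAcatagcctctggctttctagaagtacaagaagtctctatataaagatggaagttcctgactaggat
Mmp10: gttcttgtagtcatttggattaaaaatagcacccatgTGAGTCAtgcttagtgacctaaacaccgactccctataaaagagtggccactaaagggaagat
Timp1: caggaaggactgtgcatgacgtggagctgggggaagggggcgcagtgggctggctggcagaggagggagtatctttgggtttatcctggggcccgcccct

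The motif was searched on both strands in the 250 bases before each start. Of the 10 members, 8 had an entry (all but Mmp2 and Mmp9), and 2 of these held a match. It began 46 bases before the start of Mmp3 and 35 bases before that of Mmp13. Over all MMP genes, 18 had an entry and 8 held a match. These 8 were all among the 10 MMP genes of chromosome 9, and the 8 MMP genes with an entry on other chromosomes held none, nor did the 4 TIMP genes. Of the 8 genes with a match, Mmp20 had no count in any library, Mmp7 at most 1, and Mmp1b none on days 0 and 2. Mmp15 and Mmp23, without a match, were 13-fold and 12.1-fold above day 0 on day 2. Mmp27 of the cluster, also without a match, was 7.31-fold above, from 1 expected count to 4. For comparison, 6.75% of all 32851 promoter entries held a match. That share is per entry, whereas the MMP numbers are per gene, so the units differ. A gene with more than 1 entry was counted if any of them matched. Mmp12 was counted as holding a match through 1 of its entries, as was Mmp7. A match describes letters only, and binding was not measured in these libraries.

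Levels of 1 gene across days are given as normalized counts, the expected counts divided by TMM effective library sizes and scaled to their geometric mean. Changes are log2 ratios of normalized counts with a pseudocount of 1. Calls were made at over 2-fold among the 13346 genes that reached 10 expected counts in at least 1 library. A gene below this minimum on day 0 passed it only through a later day, so it was called above day 0 more readily than below it. Of the 10 members 9 passed this minimum, and Timp4, with at most 9 expected counts, did not. Mmp9 and Mmp13, with 2 and 7 expected counts on day 0, passed it only through later days. The libraries held between 2253748 and 3890334 expected counts, so that 3 counts stood for 0.771 to 1.33 per 1000000. On day 2 the 10 most abundant genes took 14.2% of the counts, against 6.3% to 8.57% in the other libraries. The mean gene length weighted by counts was 2279, 2127, 2657, 3351 and 2955 bases from day 0 to day 14, so the later libraries held more counts from long genes.

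On day 2, 3 of the 10 members were over 2-fold above day 0 (Mmp3, Mmp11 and Mmp13), where 15.2% of all genes tested were. On that day 1 member (Timp3) was over 2-fold below day 0, against 13.1% of all genes. On day 5, 5 members were above (Mmp2, Mmp3, Mmp9, Mmp13 and Mmp14; 20.2% of all genes) and 1 was below (Timp1; 13.6%). The same 5 genes were above on day 10 (28.7% of all genes), and Timp1 was again below (22.3%). On day 14, 3 members were above (Mmp2, Mmp3 and Mmp13; 24.5%) and 2 were below (Mmp9 and Timp1; 19.9%). The median log2 change of the 10 members was 0.86, 1.03, 1.02 and 0.58 on days 2, 5, 10 and 14, against -0.03, 0.05, 0.14 and 0.07 over all genes tested. The MMP and TIMP genes differed, with medians from day 2 to day 14 of 0.99, 2.65, 2.28 and 2.44 for the 6 MMP genes and of 0.69, 0.39, 0.17 and -0.29 for the 4 TIMP genes. The medians of the 10 members and of the 4 TIMP genes include Timp4, which had few counts. Among the 3 other TIMP genes the middle value was that of Timp2, at 0.58, 0.32, -0.19 and -0.56, so the sign on day 10 depended on Timp4. No member of the MMP genes except Mmp9 was ever over 2-fold below day 0, and no TIMP gene of the 3 tested was over 2-fold above it on this scale. On other scales some were. Timp3 had a log2 change of 1.15 on day 5 and 1.69 on day 10 in TPM values, where the median of all genes tested was 0.61 and 1.09. On day 10 it had 1.01 under total counts (median of all genes 0.60) and 1.18 under quantile normalization (median 0.01). Timp2 had 1.17 on day 5 under quantile normalization (median -0.02). The study itself lists Mmp2, Mmp3, Mmp11, Mmp13, Mmp14 and Timp3 among adhesion and migration genes chosen on these libraries, so these counts are not independent of that list.

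**Figure D1:**
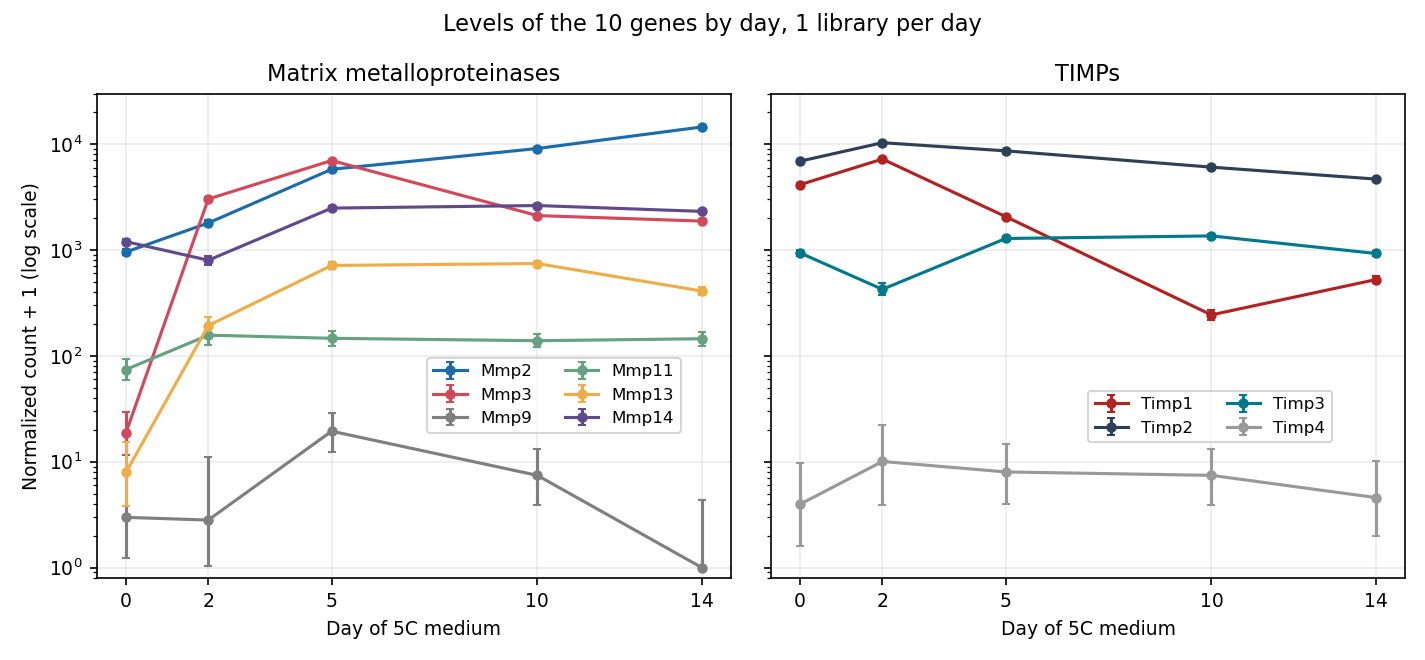
Normalized counts plus 1 (log axis) of the 6 MMP genes and the 4 TIMP genes against the day of 5C medium, with 1 library per day and error bars for the 95% counting interval. Mmp3 went from 17.8 to 6979 by day 5, Mmp2 was highest on day 14 at 14494, and Timp1 was lowest on day 10 at 242.3.

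Mmp3 (stromelysin 1) encodes a secreted protease of wide substrate range that can also activate other MMP proenzymes. It lies at chr9:7445822-7455975 and has 1 annotated transcript of 10 exons. From day 0 to day 14 the normalized counts were 17.8, 3025, 6979, 2109 and 1870. Day 0 was far below every later day, day 5 was highest, and days 10 and 14 lay near each other. Its log2 changes were 7.33 (6.74 to 8.17) on day 2 and 8.54 (7.95 to 9.37) on day 5, a 393.1-fold difference. On day 5 it ranked first of the 13346 genes tested, and on day 2 it ranked 4. From day 5 to day 10 it was 3.31-fold lower, and it stayed 118.8-fold above day 0 on day 10 and 105.3-fold on day 14. The day 0 value rests on 17.9 expected counts, which sets the width of these intervals. Some of its expected counts were not whole, since RSEM splits reads shared among similar genes, and Mmp10 (stromelysin 2), a close relative, lies in the same cluster.

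Mmp13 (collagenase 3), a secreted protease that cuts fibrillar collagen, followed on a lower level. It lies at chr9:7272514-7283331, the first gene of the cluster. The 5 libraries held 6.93, 191.8, 712.3, 742.5 and 408.0 normalized counts in order of day. Days 5 and 10 did not differ beyond their intervals (664.2 to 762.9 and 698.2 to 789.2), and every later day lay above day 0. The log2 change was 4.60 (3.70 to 6.14) on day 2, highest on day 10 at 6.55 (5.70 to 8.06) and 5.69 (4.82 to 7.20) at the end. From day 10 to day 14 it was 1.82-fold lower. Its day 0 value rests on 7 expected counts.

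Mmp2 (gelatinase A) cuts denatured collagen and basement membrane collagen, and its proenzyme is activated at the cell surface by Mmp14 with the help of Timp2. It lies at chr8:92827291-92853420. Normalized counts of Mmp2 were 955.0, 1795, 5770, 9067 and 14494, higher on each successive day with no overlap of the intervals. The log2 changes were 0.91 (0.78 to 1.04), 2.59 (2.50 to 2.69), 3.25 (3.15 to 3.34) and 3.92 (3.83 to 4.02), which is 15.2-fold by day 14. Mmp2 and Mmp3 thus differed in course. Between days 5 and 14 the counts of Mmp2 were 2.51-fold higher and those of Mmp3 were 3.73-fold lower.

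Mmp14 (MT1-MMP), the membrane-bound activator of pro-Mmp2, lies at chr14:54431612-54445364. It had normalized counts of 1197, 797.7, 2481, 2624 and 2310. Day 2 was the lowest, and the 3 later days were the highest. The log2 change was -0.59 (-0.75 to -0.43) on day 2. It was 1.05 (0.95 to 1.15), 1.13 (1.04 to 1.23) and 0.95 (0.85 to 1.05) thereafter, close to the 2-fold threshold on all 3 later days. These values depended on the scaling. In TPM values the log2 changes were 1.76, 2.29 and 1.82, where the median of all genes tested was itself 0.61, 1.09 and 0.78. Under quantile normalization they were 1.59, 1.85 and 1.41. Relative to the median of genes of like length Mmp14 stood at 0.91, 0.92 and 0.76, so its calls on days 5 and 10 were lost there.

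Mmp11 (stromelysin 3), which unlike most secreted MMPs leaves the cell in active form, lies on the minus strand at chr10:75923222-75936496. For Mmp11 the normalized counts were 73.2, 155.6, 145.3, 137.8 and 143.9. The 4 later days did not differ beyond their intervals, and all lay above day 0. The log2 changes of 1.08 (0.62 to 1.56), 0.98 (0.58 to 1.40), 0.90 (0.52 to 1.32) and 0.97 (0.57 to 1.39) straddled the threshold, so its call on day 2 alone sets no day apart. The length that RSEM used for Mmp11 was 1665, 926, 2288, 2138 and 2233 bases in order of day. In TPM values, which use this length, its log2 changes were 1.65, 1.18, 1.65 and 1.36, over 2-fold on all 4 days. The median of all genes tested on that scale was -0.20, 0.61, 1.09 and 0.78, so genes in general were also higher from day 5 on. Mmp11 overlaps Chchd10 on the opposite strand, whose expected counts were 70, 54, 32, 9 and 23.

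Mmp9 (gelatinase B), which is known from macrophages and neutrophils, was near the limit of detection. It lies at chr2:164940780-164955850. Its expected counts were 2, 1, 21, 9 and 0. Day 5 was the highest, with a log2 change of 2.70 (1.18 to 6.35), and the interval of day 10 reached below 0. Day 0 and day 14 were both at or under 3 counts, so the call of Mmp9 below day 0 on day 14 came from the pseudocount and no fold is given.

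Timp1, which inhibits most secreted MMPs, was the member farthest below day 0 on days 10 and 14. It lies at chrX:20870166-20874735. Normalized counts of Timp1 were 4133, 7209, 2059, 242.3 and 523.8. Day 2 was the highest and day 10 the lowest, and no intervals overlapped. The log2 changes were 0.80 (0.74 to 0.87), -1.01 (-1.08 to -0.93), -4.09 (-4.26 to -3.93) and -2.98 (-3.11 to -2.86). On day 10 it was 17.1-fold lower than on day 0 and ranked 103 from the lowest of the 13346 genes tested. Between days 10 and 14, 1 member (Timp1) was over 2-fold above, with a log2 change of 1.11 (0.92 to 1.31), where 4.73% of all genes were. In the same comparison 1 member (Mmp9, from 9 expected counts to 0) was below, against 8.33% of all genes.

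Other short genes were lower in the median on the same days as Timp1. Its mean length in the tables was 858 bases, in the shortest of 10 equal groups of the genes tested (107 to 1042 bases). The median log2 change of that length group was 0.22, -0.79, -1.47 and -1.04 on days 2, 5, 10 and 14, while that of the longest group was 1.04 on day 10. Relative to its length group, Timp1 stood at 0.58, -0.21, -2.61 and -1.94. The call on day 5 and that between days 10 and 14 were therefore lost beside genes of like length, and the calls on days 10 and 14 against day 0 were kept. The part of gene length in these values was not tested. Mmp2, Mmp3 and Mmp13 lie in the middle length groups, where the medians on days 10 and 14 were between -0.15 and 0.46.

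**Figure D2:**
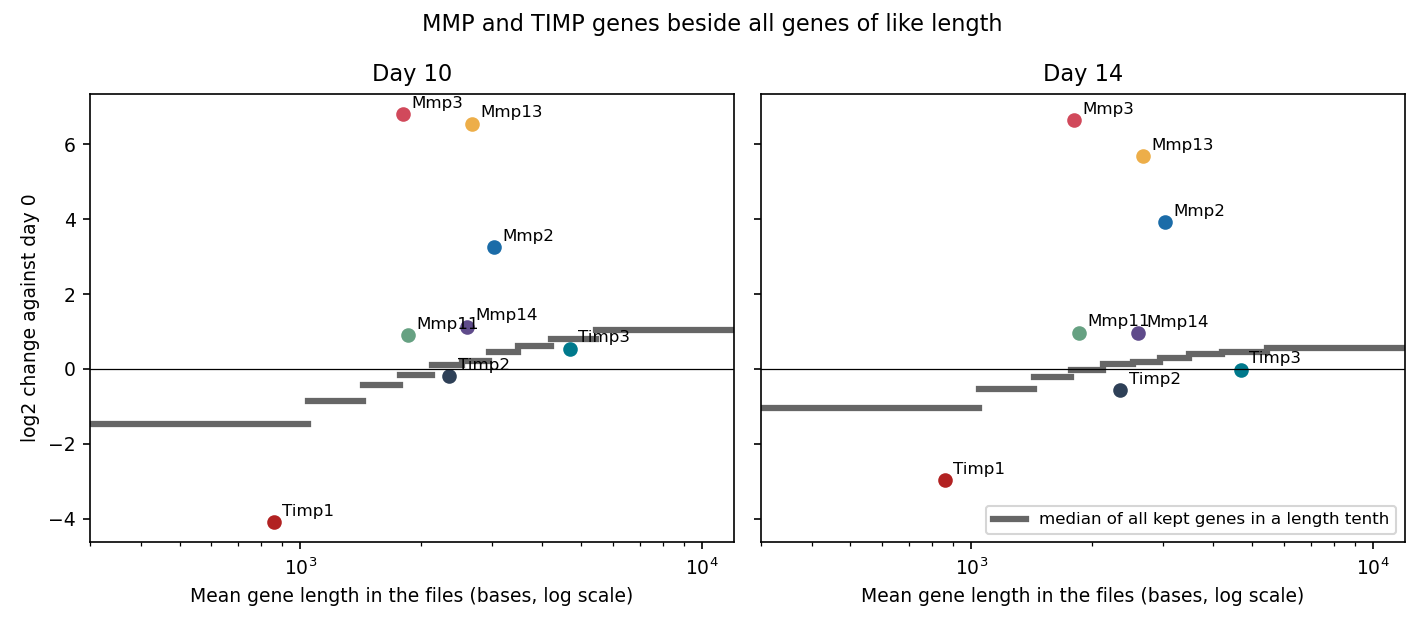
Log2 change against day 0 (vertical axis) on days 10 and 14 against mean gene length in bases (log axis) for 8 members, without Mmp9 and Timp4, which had few counts. Grey bars give the median of all genes tested in each of 10 length groups, and Timp1 lies below the bar of the shortest group (-1.47 on day 10, -1.04 on day 14).

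Timp2 inhibits MMPs and also takes part in the activation of pro-Mmp2. It lies on the minus strand at chr11:118301069-118355740. It had normalized counts of 6887, 10289, 8620, 6044 and 4665, highest on day 2 and lowest on day 14, with no overlap of the intervals. All its log2 changes were within 2-fold, from 0.58 (0.53 to 0.63) on day 2 to -0.56 (-0.61 to -0.51) on day 14. The values on days 10 and 14 had the opposite sign under quantile normalization (0.86 and 0.25), as had that on day 10 under total counts (0.28), so no direction is given for these days. The length that RSEM used for Timp2 was 1425, 1465, 2517, 3276 and 3069 bases. Longer transcripts of Timp2 thus received a larger share of its counts on the later days, and its per-length level was lower there than its counts alone would give.

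Timp3, which unlike the other TIMPs binds to the extracellular matrix, lies at chr10:86300372-86349506. Normalized counts of Timp3 were 934.6, 423.3, 1281, 1355 and 923.9. Day 2 was the lowest at 2.21-fold below day 0, a log2 change of -1.14 (-1.35 to -0.93), and day 14 did not differ from day 0 beyond the interval (-0.02, -0.14 to 0.11). On day 10 its log2 change was 0.54 (0.42 to 0.65), but -0.25 relative to genes of like length. Under quantile normalization the change on day 2 was -0.96, just inside the threshold. Timp3 lies within the span of Syn3 on the opposite strand. The library kit did not mark strand, so any reads from sequence that both genes share cannot be assigned by strand. The overlap was taken from the gene spans and not from exons, and RSEM gave each gene its own counts. The expected counts of Syn3 were 289.0, 5.03, 119.7, 8.56 and 3.

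Timp4 had 3, 5, 8, 9 and 4 expected counts and was not tested. It lies within Syn2, and Timp1 within Syn1, both on the opposite strand. Syn1 had between 2 and 14 expected counts and Syn2 between 1 and 5.

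**Figure D3:**
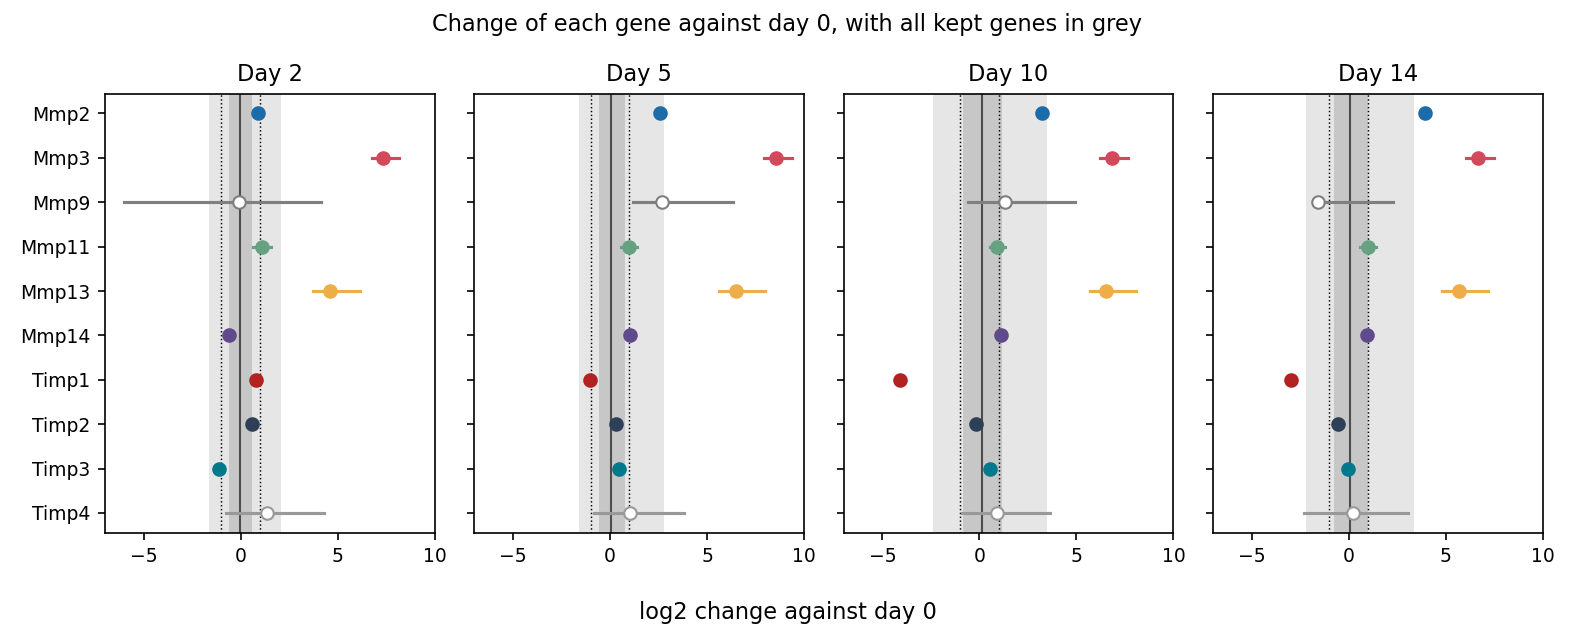
Log2 change against day 0 of the 10 genes on each later day (points), with lines for the 95% counting interval, open points for the genes with few counts, and dotted lines at 2-fold. Bands give the central 50% and 90% of all genes tested and the grey line their median; Mmp3 and Mmp13 lie above the wider band on all 4 days, and Timp1 lies below it on days 10 and 14.

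Levels of different genes were compared per length, in TPM, the transcript number per gene corrected for length and set to the same total in each library. On day 0 Timp1 (1724 TPM) and Timp2 (1720 TPM) were highest and did not differ beyond their intervals. They were followed by Mmp14 (162.5), Mmp2 (110.7), Timp3 (70), Mmp11 (15.6) and Mmp3 (3.49), each apart from the next. Mmp13, Timp4 and Mmp9 were all below 1 TPM, and neighbours among them overlapped. On day 5 Mmp3 (2242 TPM) was highest, ahead of Timp2 (1977), Timp1 (1395) and Mmp2 (1095), and Timp3 (156.2) and Mmp13 (153.5) overlapped. On day 10 Mmp2 (2362 TPM) was highest, followed by Timp2 (1460), Mmp3 (929.6) and Mmp14 (799.9), whereas Timp3, Timp1 and Mmp13 lay between 219.8 and 227.8 TPM, with overlap between neighbours. On day 14 Mmp2 (3083 TPM) stood over the next gene, Timp2 (982.7), and all neighbours down to Mmp11 (41.7) were apart.

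The summed TPM of the 6 MMP genes was 293.4, 832.1, 4081, 4366 and 4472 from day 0 to day 14. That of the 4 TIMP genes was 3515, 4692, 3530, 1918 and 1509. The MMP sum was thus below the TIMP sum on days 0 and 2 and above it from day 5, with MMP to TIMP ratios of 0.0835 (0.0798 to 0.0874), 0.177 (0.17 to 0.185), 1.16 (1.13 to 1.18), 2.28 (2.22 to 2.34) and 2.96 (2.87 to 3.06). Both sides of the ratio come from the same library, so a scaling factor between libraries does not enter it. Differences between libraries that go with gene length can still enter it, as Timp1 (mean length 858 bases) is shorter than Mmp2 (3038). Their part in the ratio was not tested. The sums are of RNA levels and say nothing of the balance of the proteins. The leading MMP gene was Mmp14 on day 0 (55.4% of the MMP sum), Mmp3 on days 2 (59.7%) and 5 (54.9%), and Mmp2 on days 10 (54.1%) and 14 (68.9%). The leading TIMP gene was Timp1 on days 0 (49.1%) and 2 (54.8%) and Timp2 from day 5 (56%, 76.1% and 65.1%). Single genes carried the ratio. Without Mmp3 it was 0.521 on day 5, without Mmp2 it was 1.05 on day 10 and 0.92 on day 14, and without Timp2 it was 9.54 on day 10.

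**Figure D4:**
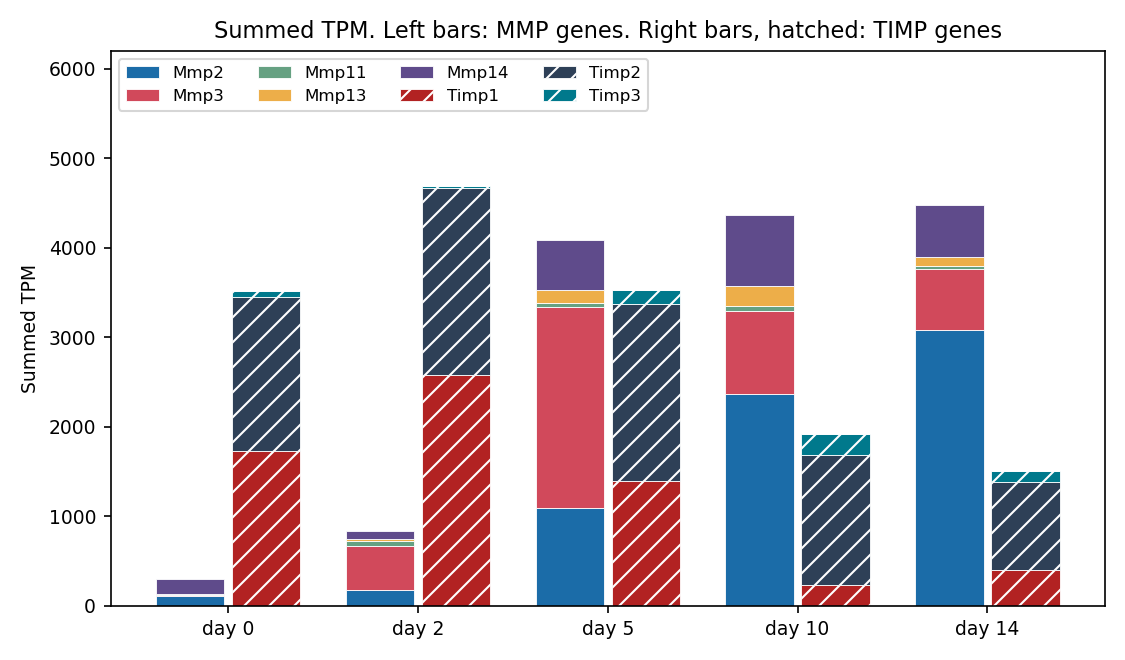
Summed TPM by day of the 6 MMP genes (left bars) and the 4 TIMP genes (right bars, hatched), stacked by gene, without error bars; genes that never passed 10 TPM are not in the legend. The MMP bar is lower on days 0 and 2 and higher from day 5, with Mmp3 (2242 TPM) leading on day 5 and Mmp2 (3083 TPM) on day 14.

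The family was wider than the 6 listed MMP genes. Of 17 further MMP genes, 11 passed the minimum of counts. Over all 17 MMP genes that passed, members included, 10, 14, 15 and 12 were over 2-fold above day 0 on the 4 days, where 15.2%, 20.2%, 28.7% and 24.5% of all genes were. Below were 1, 0, 0 and 2, against 13.1%, 13.6%, 22.3% and 19.9% of all genes. Expected counts on day 0 were 0 for Mmp1a and Mmp1b, 1 for Mmp27, 1.06 for Mmp10 and 2 for Mmp9. They were 6.18 for Mmp28, 7 for Mmp13, 8.87 for Mmp12 and 9 for Mmp15. These genes passed the minimum only through later days and could hardly be called below day 0, so the tally leans upwards. The call of Mmp1b above day 0 on day 10 rests on 2.28 expected counts. The summed TPM of all 23 MMP genes was 322.3, 1032, 4402, 4852 and 5201, so the 6 members made up most of it. Of the 6 genes below the minimum, Mmp20 and Mmp21 had 0 expected counts in every library, and Mmp7, Mmp8, Mmp24 and Mmp25 had at most 6.

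Mmp15, a membrane-type MMP, had normalized counts of 8.91, 115.8, 374.9, 780.5 and 524.4, which was 87.6-fold above day 0 on day 10. Mmp17, which is anchored to the membrane by a lipid, had 18.8, 30.8, 166.3, 504.2 and 1868 and was 99.4-fold above day 0 on day 14. Mmp19 had 43.5, 213.2, 325.7, 387.1 and 1248, 28.7-fold on day 14. Mmp17 and Mmp19, like Mmp2, were thus highest on the last day. Mmp23 was highest on day 2 with 669.4 against 55.4 on day 0. Mmp28 had 6.12, 7.24, 10, 36.1 and 52.4. Of these further genes Mmp16 alone was over 2-fold below day 0, on days 2 (23.5 against 51.7) and 14 (24.4).

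The chromosome 9 cluster held 10 MMP genes within 427 kb (chr9:7272514-7699585), of which 7 passed the minimum. By normalized count, 1 of the 7 (Mmp10) was highest on day 2, 4 (Mmp12, Mmp1b, Mmp3 and Mmp1a) on day 5 and 2 (Mmp13 and Mmp27) on day 10, and none on day 0 or day 14. All of the 7 but Mmp3 had fewer than 10 expected counts on day 0 and passed only through later days. Day 0 could therefore hardly be their highest day. From day 2 on Mmp3 had the most normalized counts of the cluster on each day, followed by Mmp13. Mmp10 had 1.05, 63.5, 51.7, 12.8 and 6.2, and Mmp12 (macrophage elastase) had 8.78, 57.8, 142.6, 67.9 and 53.5. Mmp1a, with no count on day 0, was at least 15.4-fold higher on day 5, and Mmp1b, also at 0, at least 4.16-fold, taking 3 counts in the day 0 library as the floor. Mmp27 had 0.99 on day 0 and 13.6 on day 10.

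**Figure D5:**
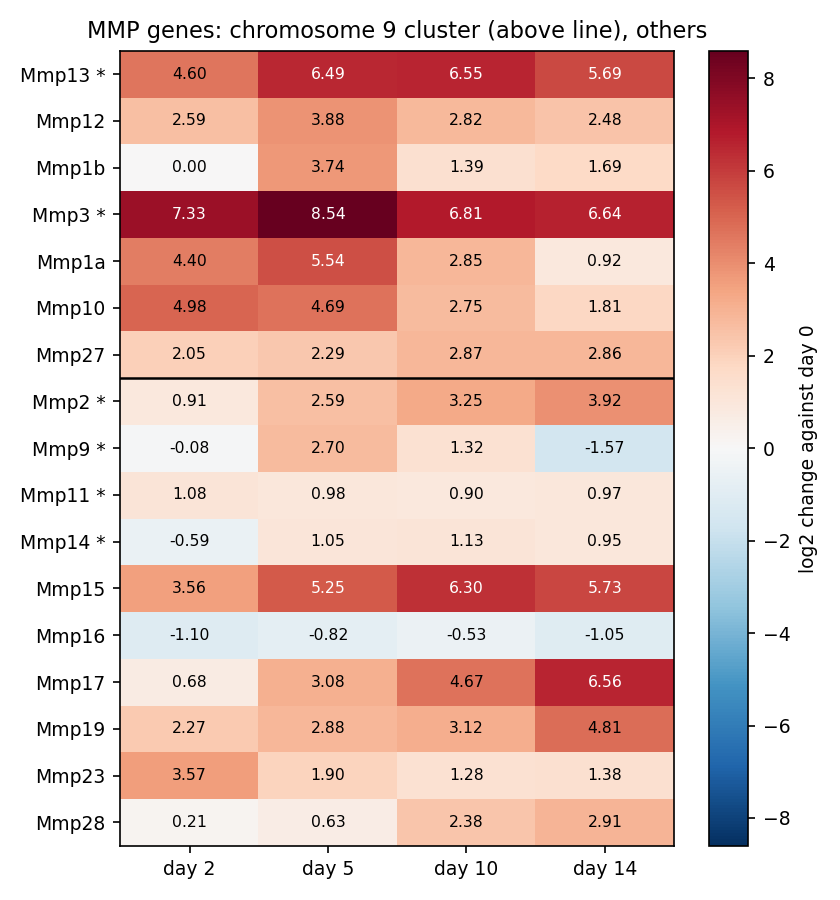
Log2 change against day 0 of the 17 MMP genes that passed the count minimum (rows, listed members starred) on 4 days (columns), in the order of the chromosome 9 cluster above the line and by number below it. Mmp3 has the highest value, 8.54 on day 5, and the values of Mmp1a, Mmp1b, Mmp9 and Mmp27 rest on few counts.

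Of 17 genes that regulate MMPs, many of them at the cell surface, 16 were tested, and 3, 8, 6 and 4 were over 2-fold above day 0 and 3, 5, 4 and 5 below it on the 4 days. The shares of all genes were 15.2%, 20.2%, 28.7% and 24.5% above and 13.1%, 13.6%, 22.3% and 19.9% below, so the counts above on days 2 and 14 and below on day 10 were near the background. Their median log2 change was 0.00, 0.76, 0.48 and 0.19. Plaur, the urokinase receptor, was lower on the later days, with 297.9 normalized counts on day 0 and 18.6 on day 10. Reck, a membrane-anchored MMP inhibitor, had 25.7, 23.5, 78.8, 281.1 and 136.8, a log2 change of 3.40 on day 10. On day 10, then, Timp1 was lower and Reck was higher than on day 0.

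Of 27 ADAM and ADAMTS genes, which encode related metalloproteases, 24 were tested, and 8, 10, 16 and 13 were above and 4, 2, 0 and 0 below, beside 15.2%, 20.2%, 28.7% and 24.5% of all genes above and 13.1%, 13.6%, 22.3% and 19.9% below. The largest changes were those of Adamts15 (normalized counts of 0.99 on day 0 and 333.4 on day 10), Adamts20 (0.99 and 98.5) and Adamts4 (3.96 and 85.7, and 96.5 on day 14). All of these passed the minimum only through later days. Their median log2 change over all 27 was 1.56 on day 10, against 0.14 over all genes.

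Of 17 genes for AP-1 and ETS transcription factors 15 were tested, with 5, 5, 8 and 9 above and 1, 0, 3 and 2 below on the 4 days and medians of 0.46, 0.44, 0.37 and 1.17. Of all genes 15.2%, 20.2%, 28.7% and 24.5% were above, and 22.3% were below on day 10, which the 3 of 15 below on that day did not exceed. Fos had normalized counts of 127.7, 275.0, 487.4, 1348 and 4342, and Fosb had 40.6, 271.4, 83.1, 110.7 and 921.6. Both were highest on day 14, and Fosb also had a log2 change of 2.71 on day 2. The part of these factors in the MMP values was not tested. Etv1, an ETS factor, had 6.93, 95.9, 137.5, 97.1 and 27.7 and was highest on day 5.

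Of 19 genes for cytokines known to induce MMPs and for their receptors 14 were tested, with 1, 5, 6 and 7 above and 2, 1, 1 and 1 below and medians of -0.11, 0.60, 0.90 and 0.92. On day 2, where 15.2% of all genes were above and 13.1% below, neither count stood out, and on the later days 20.2%, 28.7% and 24.5% of all genes were above. Il1r1, a receptor of interleukin 1, had 34.6 normalized counts on day 0 and 548.4 on day 10. Lifr, a receptor subunit for the leukemia inhibitory factor of the medium, had 33.6 and 350.6, and Tgfb3 had 891.7 and 120.7.

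Markers of several cell types moved over the same days, and in bulk RNA more cells of a type and more RNA per cell cannot be told apart. All 13 fibroblast markers were detected in every library, with a summed TPM of 10068, 5509, 12486, 21081 and 27479. They went both ways, with 4, 5, 5 and 6 over 2-fold above day 0 and 3, 2, 4 and 3 below, and medians of -0.02, 0.09, 0.53 and 0.91. Of all genes 15.2%, 20.2%, 28.7% and 24.5% were above and 13.1%, 13.6%, 22.3% and 19.9% below. The fibroblast counts above on day 10 and below on days 5, 10 and 14 were near these shares. Lum (23.8 normalized counts on day 0, 1486 on day 14), Dcn (101.9 and 2989) and Col3a1 (1316 and 19193), all matrix genes, changed most and, like Mmp2, were highest on day 14. The 15 macrophage markers had a summed TPM of 73.8, 579.6, 1920, 1503 and 941.7, highest on day 5 as was Mmp3. Of them 15, 14, 13 and 13 were over 2-fold above day 0 and 0, 1, 1 and 1 below it. Lyz2 had normalized counts of 107.9 on day 0 and 2738 on day 5, Laptm5 had 9.9 and 215.3, and Cd5l had 0 and 224.0. The 10 Schwann cell and neural crest markers summed to 15.6, 20.1, 223.7, 2078 and 2269 TPM, all 10 over 2-fold above day 0 on days 10 and 14. Sox10 had 6.93 normalized counts on day 0 and 1993 on day 14, and Gjc3 had 0 and 274.3. Both passed the minimum only through later days. The part of such cells in the MMP and TIMP values was not tested.

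The 8 endothelial markers summed to 23.6, 14.9, 12.5, 6.18 and 3.76 TPM. Kdr alone held 14 TPM on day 0 and 0.18 on day 2, and went from 235.5 normalized counts on day 0 to 3.58 on day 14. Other markers of this list went the other way. Of 4 tested, 2, 1, 1 and 0 were over 2-fold above day 0 and 1, 1, 2 and 2 below. The median of all 8 was 1.03 on day 2. At 0 were 1, 3, 2 and 3 of the 8 on days 2, 5, 10 and 14. The 9 epithelial markers summed to 12.6, 67.5, 32.9, 11.2 and 7.11 TPM, and Krt18 had 30.7 normalized counts on day 0 and 293.1 on day 2. The 11 pan-neuronal markers summed to 105.9, 55.3, 92.3, 103.7 and 123.7 TPM, but single genes went both ways. Of 6 tested, 1, 4, 4 and 3 were over 2-fold above day 0 and 1, 2, 2 and 2 below. The shares of all genes were 15.2%, 20.2%, 28.7% and 24.5% above and 13.1%, 13.6%, 22.3% and 19.9% below, so neither count on day 2 stood out. Stmn2 (447.8 on day 0, 163.0 on day 14) and Map2 (195.8 and 45.6) were lower and Tubb3 (22.1 and 160.8) was higher. Of these 11, 5 were at 0 on day 14.

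The genes whose 4 log2 changes lay nearest to those of 4 members were sought by Euclidean distance among 8256 genes that reached 100 expected counts. For Mmp2 these were Kdm7a (distance 0.337), Vstm4 (0.511) and H2-Q7 (0.525). For Mmp3 the nearest were farther, Ccl8 (1.91), Agtr2 (2) and Ugt1a6b (2.55), so no gene came close to its course. For Mmp13 they were Atp6v0d2 (1.06), Ace (1.51) and Lbp (1.61). For Timp1 they included Hmga1 (0.655) and Aprt (0.934). Aprt, with a mean length of 866 bases, lies in the shortest length group as Timp1 does. The nearer gene, Hmga1, has a mean length of 1557 bases and lies in group 3 from the shortest. Likeness over 4 days with a shared day 0 is a description of these libraries.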

How the data were processed

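Total RNA was sequenced in 5 libraries, 1 per day. The authors deposited, per gene, expected counts, which RSEM estimates from aligned reads without scaling, together with TPM and FPKM values, both scaled for length and depth. Bowtie, RSEM and the mm10 build are named in the submitters' processing notes, and their versions are not given in the sources used here. The FPKM values were not used. Symbols and coordinates came from GENCODE M21 (GRCm38), which matched 27247 of 27729 genes, and promoters from RefSeq (GRCm38.p6).

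Expected counts were rounded for TMM library sizes (edgeR 4.0.16, R 4.3.3) and for the intervals. Levels have exact Poisson and ratios exact Clopper-Pearson intervals (scipy 1.17.1). Reads without molecular identifiers are not independent molecules. The members and lists were chosen with earlier results of these data known. Named genes were all members, all other MMP genes that reached 10 expected counts, the 3 genes of each other list with the largest change among those with 100 or more counts, and the 3 nearest patterns, of which a few are not reported here. The few other genes with values overlap a member or fell below the minimum. The calls and intervals were tested on simulated data. Alternatives were DESeq2 size factors (1.42.0), total counts, upper quartile factors, quantile normalization, TPM values, subtraction of the median of each of 10 length groups, library sizes without Gm42418 and Lars2, a pseudocount of 5 or none, other filters and a 4-fold threshold.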

Additional observations from a re-analysis of the deposited data

How the results depend on the processing

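Of 448 values of single genes under 9 alternatives, 345 stayed within the counting interval and 103 left it, most often under TPM values (32), total counts (23), quantile normalization (22) and length groups (22). No called value changed sign. Of the values that were not called, 12 did, and they belonged to Mmp11, Mmp9, Timp2, Timp3 and Timp4. The TPM scale moved the median of all genes to 0.61, 1.09 and 0.78 on days 5, 10 and 14, and total counts to 0.41, 0.60 and 0.42. No paired analysis was possible because there was 1 library per day, and for the same reason none could be left out.

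The number of members below day 0 on day 2 was 0 under quantile normalization and at 4-fold. That on day 5 was 0 under total counts, quantile normalization, TPM values, length groups and at 4-fold. On day 14 it was 1 under TPM values, a pseudocount of 5, no pseudocount, 4-fold and a minimum of 10 counts in every library. The number above day 0 was 7 on days 5 and 10 under TPM values and 7 on day 10 under total counts. It was 3 on days 5 and 10 with a minimum of 10 counts in every library, where fewer genes are tested, 3 on day 10 at 4-fold, and 5 on day 14 under total counts and TPM values. Total counts and TPM values also raised the median of all genes on days 5, 10 and 14, as given above. Their numbers of members are therefore not comparable with the shares of all genes on the main scale. Between days 10 and 14 the number above was 0 under total counts, TPM values, length groups and at 4-fold. The number below was 2 under quantile normalization and TPM values, and 0 with no pseudocount and with a minimum of 10 counts in every library. The cause was not tested for the other scalings.

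The following settings for the MMP to TIMP ratio were chosen after the data had been seen. With normalized counts divided by the mean length over the libraries, the ratio was 0.104, 0.213, 1.12, 1.75 and 2.48 from day 0 to day 14. Without Mmp2 it was 0.052, 0.14, 0.846, 1.05 and 0.92. Without Mmp3 it was 0.0715, 0.521, 1.79 and 2.52 on days 2, 5, 10 and 14. Without Timp1 it was 0.164, 0.392, 1.91, 2.58 and 4.01, and without Timp2 0.163, 0.32, 2.63, 9.54 and 8.5. With all 23 MMP genes it was 0.0917, 0.22, 1.25, 2.53 and 3.45. In each of these settings the ratio was higher on days 10 and 14 than on days 0 and 2. Depth limits Mmp9, Timp4 and the day 0 values of Mmp3 and Mmp13.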
